A study of Mus musculus with 4 samples.

Results

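The data described here are the 4 h array of a mouse two-colour microarray series, in which dentate gyrus RNA of mice given MK-801 was set against dentate gyrus RNA of mice given saline. All features with a non-zero value in the 4 h column of the deposited value table were taken, an exact 0 being read as no value, and the median of the array was subtracted from each. Of 16281 features on the platform, 10185 had a value at 4 h. Of these, 8903 had 1 gene symbol in the platform annotation, and 1282 had none or several and were not named. The named features gave 7551 genes, of 9849 genes with a value on any of the 4 arrays of the series. A gene's value is the mean over its features.

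The series has 4 arrays, at 1, 2, 4 and 6 h, with 1 array for each time. All mice were young male C57BL/6J mice. Saline was injected at 5 µL per g body weight and MK-801 at 300 µg per g body weight, as the labels give the doses. On each array the saline RNA carried Cy3 and the MK-801 RNA Cy5, and no array had the dyes swapped. The labels count the hours from the last shock treatment of the mice given MK-801, and do not say what the shock was, whether the saline mice received it, or how many mice gave the RNA of an array. No untreated mice were analysed here, so every value compares the RNA of the MK-801 mice with that of the saline mice.

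MK-801 (dizocilpine) blocks the open channel of the NMDA receptor, a glutamate-gated channel that lets calcium into neurons when the cell is already depolarised. Calcium entering through this receptor is one of the routes by which firing switches on the immediate early genes, among them Fos, Arc and the Egr genes, through kinases that act on transcription factors such as CREB at the promoter. The granule cells of the dentate gyrus, marked by the transcription factor Prox1, receive the main cortical input of the hippocampus and give strong immediate early gene responses to seizures and to learning.

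The values are log ratios with no stated base, no stated direction and 1 array, which limits all that follows. They were read as log2, so that 1 is a 2-fold difference. A sign is the deposited one, and the sources used here do not say if a positive value is MK-801 over saline or the reverse. With no replicate array, a gene at 4 h has no error from mice, and the only spread that can be given is that between features of 1 gene on the array.

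Most genes lay close to 0 at 4 h. The 5th, 25th, 75th and 95th percentiles of the 7551 gene values were -0.51, -0.15, 0.15 and 0.42, and 3750 genes (49.7%) lay above 0. The robust SD of the features was 0.227, beside 0.321, 0.232 and 0.209 at 1, 2 and 6 h. The 2 tails were unequal. At or above 1 there were 8 genes (0.106%), and at or below -1 there were 163 (2.16%). At or above 0.5 there were 242 genes (3.2%), and at or below -0.5 there were 391 (5.18%). The histogram of gene values shows a narrow centre and a long tail on the negative side only.

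**Figure D1:**
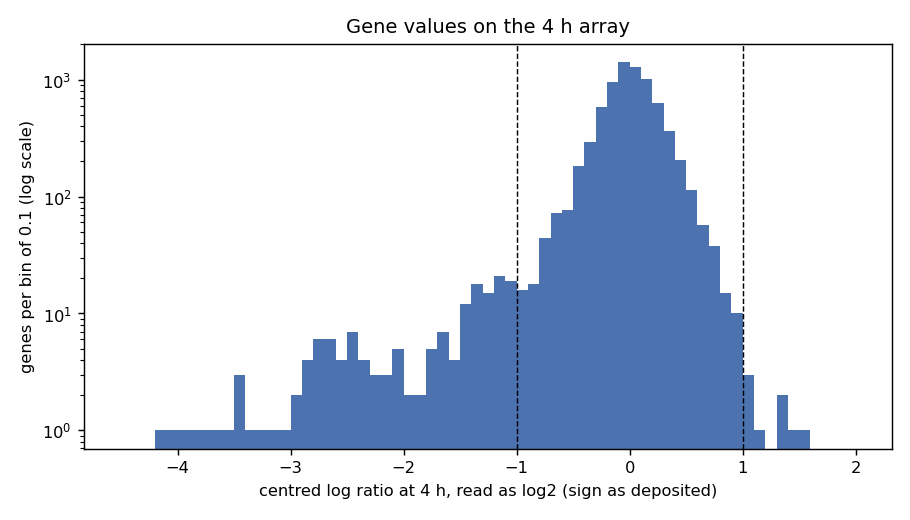
Number of genes (log axis) in bins of 0.1 of the centred log ratio at 4 h, over 7551 genes, with dashed lines at -1 and 1. The tail below -1 holds 163 genes and reaches -4.18, whereas 8 genes lie at or above 1 and none above 1.59.

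The genes with the highest values were of mixed function. Cat, which encodes catalase, the enzyme that breaks down hydrogen peroxide, read 1.59 at 4 h. It read -0.61, -0.76 and 1.25 at 1, 2 and 6 h, so the later arrays stood on one side of 0 and the earlier ones on the other. H1f4, a linker histone gene, read 1.48 at 4 h and 1.05 at 6 h, after -0.64 at 1 h and -0.29 at 2 h. Vdac1, the main channel of the mitochondrial outer membrane, read 1.40 at 4 h and 1.36 at 6 h, with 0.08 at 1 h and -0.22 at 2 h. Tex47, named for its expression in testis, read 1.31 at 4 h and 1.27 at 6 h, with -1.43 at 1 h and -0.56 at 2 h. These 4 genes therefore shared a high reading on the 4 h and 6 h arrays.

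The other 4 genes at or above 1 were Gins1 at 1.15, Mageh1 at 1.07, Myh4 at 1.07 and Pbrm1 at 1.05. Gins1 is part of the complex that opens DNA for replication, Myh4 is a skeletal muscle myosin heavy chain, and Pbrm1 is a subunit of a chromatin remodelling complex. Gins1, Myh4 and Pbrm1 had no value at 6 h, and Mageh1 read 0.63 there. Just under them came Tns1 at 0.99, Elf2 at 0.98, Efna1 at 0.94 and Srgn at 0.93, which encode a focal adhesion protein, an Ets family transcription factor, an ephrin ligand and the proteoglycan serglycin. Efna1 read 1.53 at 6 h. All 8 genes at or above 1 rested on a single feature, so none of them has a second reading on the array.

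The lowest values were far larger in size. Xist, the non-coding RNA that coats the inactive X chromosome of female cells, read lowest of all genes, at -4.18 with 1 feature. Its value was -0.47, -1.57 and -3.55 at 1, 2 and 6 h. All mice in the series are labelled male and male cells normally hold little Xist RNA. Car1, a carbonic anhydrase abundant in red blood cells, read -4.09 at 4 h, with 0.59, -2.81 and -2.74 at 1, 2 and 6 h. Lalba, a milk protein gene, read -3.96, with -3.23 at 2 h and -3.28 at 6 h.

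Sdc3, a heparan sulphate proteoglycan of neurons, read -3.84. Hes1, a Notch target that holds back neuronal differentiation, read -3.74, with -1.20, -3.36 and -3.16 at 1, 2 and 6 h. Lhx1, a LIM homeobox gene, read -3.66, with -1.22, -3.35 and -2.98 at 1, 2 and 6 h. Among the 15 lowest genes were also Capn15, a calpain family gene, at -3.56, the secretoglobin gene Scgb1b2 at -3.47, the peptidase gene Pgpep1 at -3.32 and the bone sialoprotein gene Ibsp at -3.14. Further ones were Nfkbib, an inhibitor of NF-kB, at -3.42, the activin receptor gene Acvr1b at -3.41, Sox3, a transcription factor of neural progenitors, at -3.23, the integrin gene Itga8 at -3.04 and the copper pump gene Atp7a at -2.95. The 15 lowest genes mix genes of brain, blood, breast and bone, and each of those named here rested on 1 feature.

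Where a gene had several features, a low reading was not shared by the others. At 4 h 1236 genes had several features, 2588 in all, and 722 of these genes (58.4%) had all features on the same side of 0. The median SD over the features of a gene was 0.144. Of the 187 named features at or below -1, 106 lay in 104 genes with other features. In 0 of those 104 genes were all features at or below -1. The 127 other features of the same genes had a median of 0.06 and ran from -0.91 to 0.71, and 5 of them (3.94%) lay at or below -0.5, beside 3.26% of the 8716 named features above -1. A low feature and its gene's other features therefore gave different readings of the same gene on the same array. Over the 1144 genes with exactly 2 features, the features had a Pearson r of 0.0093, and of 0.187 over the 1046 genes with both within 1 of the median. These correlations are across genes of 1 array, with all points sharing its hybridisation.

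Gapdh, the glycolytic enzyme gene printed many times on the array, showed the split most directly. It had 20 features at 4 h. Of these, 17 lay between 0.33 and 0.47, with a mean of 0.39 ± 0.030 (SD, n = 17 features of 1 array). The other 3 read -2.59, -2.54 and -2.45. The 17 features formed a narrow band and the other 3 stood almost 3 units below it, with none in between. The mean over all 20 was -0.04 ± 1.07 (SD), a value that no single feature had. All 3 low features had no value at 2 h and at 6 h. The 17 others read 0.35 ± 0.060 (SD, 17 features) at 6 h, 0.48 ± 0.15 (16 features) at 2 h and -0.26 ± 0.088 (15 features) at 1 h. Actb, the beta-actin gene, had 1 feature, at -0.37.

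The low features also lay unevenly along the numbering of the array. The feature numbers run to 18564 and were divided into 12 equal stretches of 1547, a division chosen after the values had been seen. The end zone, from 75% of each stretch on, held 2037 features (20%) but 143 of the 204 features at or below -1 (70.1%). It held 1 of the 11 features at or above 1. The median of all features there was 0.03, against -0.0057 elsewhere, so the bulk of the features in that zone was not low. The share of low features in the end zone was 22%, 31.6% and 57.6% at 1, 2 and 6 h. The zone held 23.1%, 18.9% and 18.9% of all features at those times, so at 1 h it held no excess of low features. All 3 low Gapdh features lay in this zone, as did 13 of the 17 others.

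Low features in the end zone differed from those elsewhere in a further way. The 143 in the end zone had a median of -2.54, and 75 of them had no value at 6 h. The 61 elsewhere had a median of -2.07, and 3 had no value at 6 h. Of the 30 features at or below -3, 15 lay between 18% and 27% of a stretch, a zone with 1003 features, and 8 in the end zone. The zone from 18% to 27% was not set in advance, so its count is a description only. Of the 30, 27 had a value at 6 h and all 27 lay at or below -1 there. The plot of values by position shows these groups as separate clouds. Of the 163 genes at or below -1, 114 had a low feature in the end zone. The part of the array layout in these values was not tested, since the printing order and the spot signals were not used here.

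**Figure D2:**
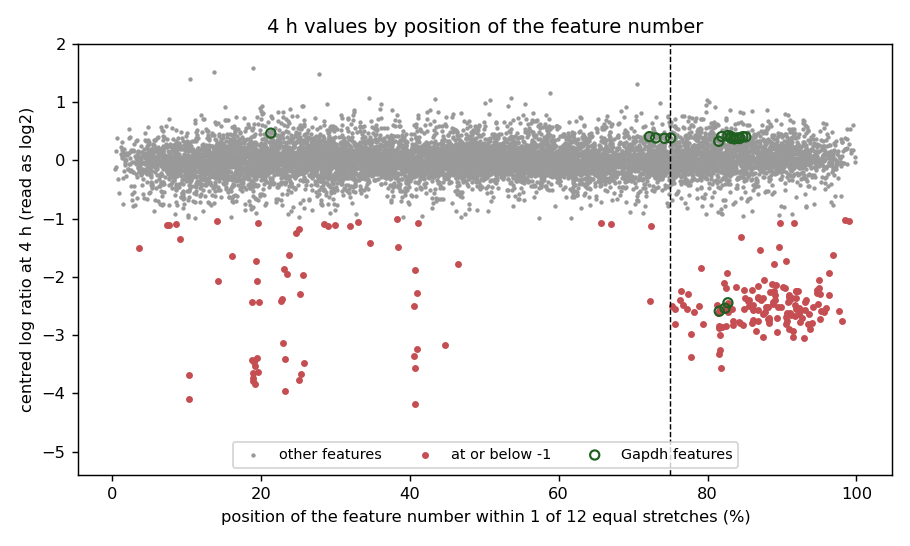
Centred log ratio at 4 h of each of 10185 features against the place of its number within 1 of 12 equal stretches, in percent, with features at or below -1 in red, Gapdh features as green circles and a dashed line at the start of the end zone. The end zone holds 143 of the 204 red points, and the Gapdh features fall into a group of 17 near 0.39 and a group of 3 below -2.

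Among genes whose several features lay on the same side of 0, some gave smaller readings of similar size and others did not. On the negative side, Rab18, a small GTPase of lipid droplets and the endoplasmic reticulum, had features at -0.76 and -0.72. Inppl1, which encodes the lipid phosphatase SHIP2, had features at -0.84 and -0.70. Clasp2, a microtubule plus-end protein, read -0.77 and -0.55, and Hpca, which encodes the neuronal calcium sensor hippocalcin, read -0.53 at both features. The gene value of Rab18 at 6 h was -0.50, that of Inppl1 -0.59, that of Clasp2 -0.63 and that of Hpca -0.14. Nxf1, an mRNA export factor, read -2.62 and -0.91, and Vamp7, a vesicle fusion protein, -2.48 and -0.53, so the sign was shared in these genes and the size was not. The same held for Gpr65 (-1.93 and -0.74), Pga5 (-2.18 and -0.72) and Timp1 (-3.36 and -0.58).

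On the positive side, Trip6, a LIM domain adaptor of focal adhesions, had features at 0.51 and 0.82. Rps6kb2, an S6 kinase, read 0.51 and 0.67, and Ctla2a, a small protease inhibitor gene, 0.46 and 0.87. Rprm, a p53 target that slows the cell cycle, read 0.45 and 0.52, with 0.43 at 6 h. Add3, an adducin of the membrane skeleton, read 0.39 and 0.40, with 0.40 at 6 h. Dpp6, an auxiliary subunit of Kv4 potassium channels, read 0.38 and 0.72, with 0.35 at 6 h. These genes were chosen by the size of the reading that all their features reached, so that the agreement of their features is a description of the choice.

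The immediate early and activity genes lay mostly on the negative side at 4 h. Of 66 such genes on the platform 55 had a value, with a median of -0.15, and 14 (25.5%) lay above 0, against 49.7% of all genes. It had 1 gene at 0.5 or higher (3.2% of all genes) and 7 at -0.5 or lower (5.18% of all genes). The median of the list was 0.11, -0.04 and -0.04 at 1, 2 and 6 h. Without the end zone 52 genes remained, with the median at -0.15 and 11 above 0, so the list lay below 0 without that zone too. No test of a list was made, and with 1 array the count describes this hybridisation.

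Of the transcription factors in the list, Egr1 read -0.68 at 4 h, after 0.16 at 1 h and -0.37 at 2 h and before -0.53 at 6 h. Fos had features at -1.17 and 0.01, so its gene value of -0.58 lay between readings that differ by more than the 2-fold threshold. Its gene values at the other times were 0.64, -0.52 and -0.50 at 1, 2 and 6 h. Egr3 read -0.53, with 0.36 at 2 h and 0.22 at 6 h, and thus lay on the other side of 0 on the neighbouring arrays. Junb read -0.29, with 0.35, -0.24 and -0.24 at 1, 2 and 6 h, and Jun -0.23, with 0.42, -0.19 and 0.01. Nr4a1, an orphan nuclear receptor gene switched on by calcium, read -0.28, with 0.63, -0.13 and -0.36 at 1, 2 and 6 h. Egr2 lay above 0, at 0.12. At 1 h the gene values of Fos, Egr1, Junb, Jun and Nr4a1 lay above 0, and at 2 h and 4 h all 5 lay below it. Of the whole list, 31 of 52 genes lay above 0 at 1 h, 22 of 54 at 2 h and 14 of 55 at 4 h.

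Effectors and feedback genes of the same list read as follows. Arc, which encodes a synaptic protein that governs AMPA receptor traffic, read -0.21, with 0.51, -0.01 and -0.19 at 1, 2 and 6 h. Dusp1, a phosphatase that switches off MAP kinases, had both features near its gene value of -0.22, and the gene read 0.41 at 1 h and -0.35 at 6 h. Sik1, a kinase that restrains CREB co-activators, read -0.90, with 0.25 at 1 h and -0.55 at 6 h. Klf10, a zinc finger repressor gene, had features at -1.49 and -0.22. Per1, a clock gene with a CREB-responsive promoter, had features at -0.55 and -0.36, and its gene value was -0.46 at 4 h, against -0.45, -0.48 and -0.42 at 1, 2 and 6 h. Per1 thus stood below 0 to about the same extent on all 4 arrays. The lowest gene of the list, the small GTPase gene Arf6 at -1.45, rested on features at -2.83 and -0.07.

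Bdnf, the neurotrophin gene induced by activity, lay on the other side, at 0.10, with features at -0.00 and 0.20. Homer1, a scaffold of metabotropic glutamate receptors whose short form is an immediate early product, had 4 features from -0.57 to 0.26 and a mean of -0.07. Crem, a CREB family gene with an inducible repressor form, read 0.41 at 4 h and 0.38 at 6 h. Ccn2, a matrix protein gene, was the highest of the list at 0.57, and read -0.62 at 6 h. Fosb and Npas4 had no value at 4 h. The MAP kinase phosphatase genes, a list that shares members with the activity genes, had a median of -0.14 over 10 genes, with 3 above 0, and Dusp6 was the lowest at -0.40, with 0.49 at 1 h.

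**Figure D3:**
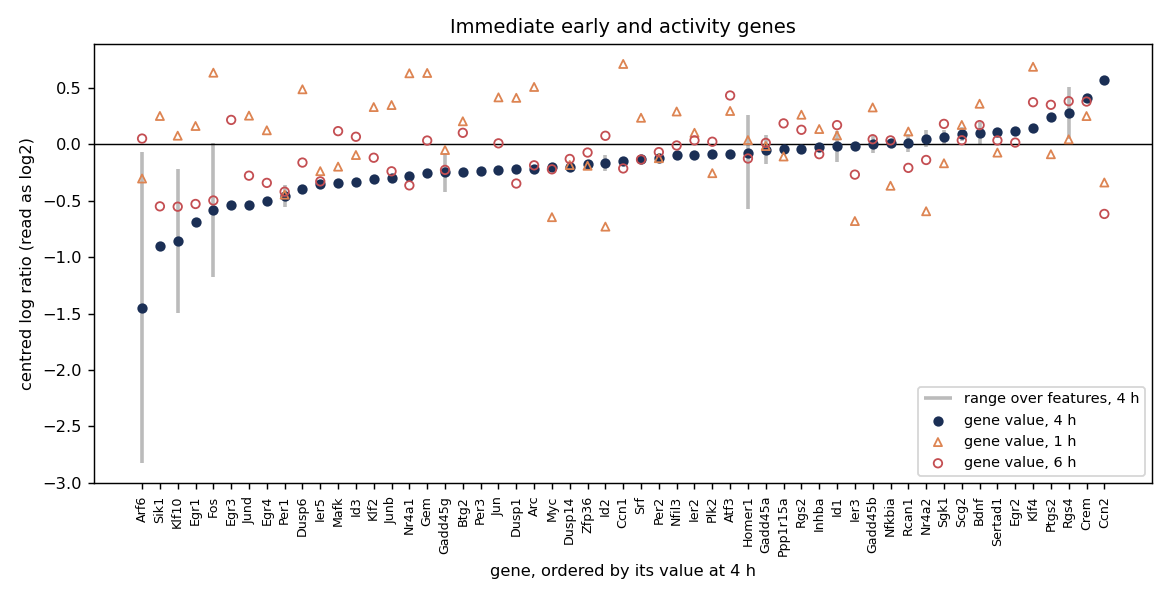
Centred log ratio of the 55 immediate early and activity genes with a value at 4 h, ordered by that value (dark points), with the range over features where a gene has several (grey lines) and the gene's values at 1 h (triangles) and 6 h (open circles). At 4 h 14 of 55 genes lie above 0, and Fos, Klf10 and Arf6 have features far apart.

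Many activity genes hold the cAMP response element, the sequence bound by CREB, in their promoters. The motif TGACGTCA, which reads the same on both strands, was looked for in the RefSeq promoter windows of 250 bases before to 50 bases after the start (GRCm38.p6), in which 42 of the 55 genes had an entry. It was present in 6 of the 42 (14.3%), against 2.59% of the 6066 genes with both a value at 4 h and a promoter and 1.77% of all 27025 promoters. The 3 holders with the lowest values at 4 h are shown with 30 bases on either side of the motif, which is in capitals, because they let a reader see the element beside the reading.
Btg2: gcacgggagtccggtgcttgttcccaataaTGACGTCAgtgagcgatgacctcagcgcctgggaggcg
Dusp1: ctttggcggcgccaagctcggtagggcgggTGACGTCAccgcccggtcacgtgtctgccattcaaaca
Plk2: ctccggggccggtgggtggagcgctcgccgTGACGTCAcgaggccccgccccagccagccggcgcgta

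The Btg2 stretch is chr1:134079284-134079351 on the minus strand, the Dusp1 stretch chr17:26508578-26508645 on the minus strand and the Plk2 stretch chr13:110394952-110395019 on the plus strand, all in GRCm38.p6. The first base of the motif lies 166 bases before the start in Btg2, 143 in Dusp1 and 62 in Plk2. At 4 h Btg2, an antiproliferative gene, read -0.25, Dusp1 -0.22 and the polo-like kinase gene Plk2 -0.09. The other 3 holders were Ppp1r15a at -0.04, Rcan1 at 0.01 and Scg2 at 0.09. The 6 genes with the motif had a median of -0.07 with 2 above 0, and the 36 without it a median of -0.14 with 10 above 0. Within the activity genes, those with the full motif in this window did not read lower than those without. The shorter form, TGACG or its reverse complement CGTCA, which lies within the full motif, was present in 61.9% of the 42 activity promoters, 28.7% of promoters of genes with a value and 19.8% of all.

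Of the receptor that MK-801 blocks, 3 of 4 subunit genes on the platform had a value. Grin2a, the subunit gene of the mature forebrain receptor, read 0.78 at 4 h, after -0.20 at 1 h and -0.35 at 2 h and before 0.48 at 6 h. Grin2b, the subunit gene most prominent early in development, read -0.23, with -0.02, 0.29 and 0.28 at 1, 2 and 6 h. Grin2c, a subunit gene best known from cerebellum, had features at -0.30 and -0.22. Grin2a lay among the 242 genes at or above 0.5, and Grin2b and Grin2c below the 25th percentile of all genes. Without the end zone Grin2b had no value. The median was then 0.28 over 2 genes, against -0.23 over 3 with that zone. Neither the obligatory subunit gene Grin1 nor Grin2d had a value at 4 h. With 4 subunit genes annotated on the platform, they cannot both be among them.

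The AMPA, kainate and metabotropic receptor genes had a median of 0.16 over 9 genes, with 5 above 0. The kainate receptor gene Grik1 read 0.65 and the AMPA receptor gene Gria4 0.47, whereas the delta receptor gene Grid1 read -0.46 and Gria1, the AMPA subunit gene tied to plasticity, -0.24. Of the postsynaptic scaffold genes, 19 had a median of -0.07, which turned to 0.03 without the end zone, with 11 above 0. Dlg1, which encodes the scaffold SAP97, read 0.76, but its features were 1.52 and 0.01. Camk2b, the beta subunit of CaM kinase II, read -1.45, with features at -2.66 and -0.24. The signalling genes linked to the NMDA receptor had a median of 0.03 over 24 genes, with 13 above 0.

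GABA and glycine receptor genes had the lowest median of the 62 lists with 5 or more genes, at -0.21, but only 8 of 17 on the platform had a value, and 3 lay above 0. Without the end zone 5 genes were left with a median of -0.09, and other lists lay lower. Gabrr1, a subunit best known from retina, read -2.62, and Gabra3 had features at -2.37 and 0.02. With the end zone 2 of the 8 genes lay at or below -0.5, beside 5.18% of all genes, and without it 0 of 5. With so few genes these counts describe single members. Gabrd, the delta subunit of the tonic GABA receptors of granule cells, read 0.42. Presynaptic genes had a median of 0.08 over 42 genes with 25 above 0, from the SNARE gene Snap25 at 0.49 to the calcium sensor gene Doc2b at -1.37. Potassium channel genes had a median of -0.05 over 47 genes with 18 above 0, and Kcnj12, an inward rectifier gene, was the lowest at -2.03. The medians of the synaptic lists fell on both sides of 0.

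Lists of protein turnover and the cytoskeleton had medians above 0. Over all genes 49.7% lay above 0. Of 115 ubiquitin-conjugating and ligase genes, 79 (68.7%) lay above 0, with a median of 0.07, and the ubiquitin ligase gene Rnf125 was the highest at 0.59. The median of this list was -0.07, 0.03 and 0.05 at 1, 2 and 6 h. Of 35 kinesin and dynein motor genes, 23 lay above 0 with a median of 0.15, and no gene passed 0.5 on either side. The dynactin subunit gene Dctn4 was the highest at 0.41, and Kif9 the lowest at -0.42. Of 61 actin and actin-binding genes, 40 lay above 0 (median 0.08, and 0.05 without the end zone), with the myosin gene Myh4 the highest, and of 39 proteasome subunit genes, 25 (median 0.05), the latter with a narrow range from -0.21 for Psmb10 to 0.37 for Psmd1.

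Of the stress lists, some also lay mostly above 0 and others lay close to the 49.7% of all genes above 0. Some readings were larger. Of 58 heat shock and chaperone genes, 38 lay above 0, with a median of 0.07. Hspa8, the constitutive HSP70, read 0.42 with 0.40 at 6 h, and Hspa1b, the inducible form, had features at -2.29 and 0.13. The endoplasmic reticulum stress genes had a median of 0.06 over 31 genes, with 17 (54.8%) above 0. Without the end zone the median was 0.02 over 28 genes, with 14 above 0. Ddit3, which encodes the stress transcription factor CHOP, read 0.93 at 4 h, and 0.06, 0.36 and 0.01 at 1, 2 and 6 h. Nupr1, a stress-response regulator, read 0.75 at 4 h and 0.73 at 6 h. The cell death and p53 genes had a median of 0.12 over 31 genes with 21 above 0, and of 0.05 over 25 genes with 15 above 0 without the end zone. The adaptor gene Fadd read 0.64 and the apoptosome gene Apaf1 0.58. The antioxidant list, to which Cat belongs, had a median of 0.03 over 58 genes, with 30 (51.7%) above 0. Without the end zone the median was -0.0080 over 56 genes, with 27 above 0.

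Among the transcription and immune lists the medians differed in sign. Of 67 homeobox, Sox, forkhead and Hes/Hey genes with a value, 22 (32.8%) lay above 0, with a median of -0.11. Only 67 of the 154 on the platform had a value. Besides Hes1, Lhx1 and Sox3 none lay at or below -1. The chromatin enzyme genes had a median of -0.08 over 72 genes with 28 above 0, and Kat2b, a histone acetyltransferase gene, read -2.48. The RNA polymerase and general transcription factor genes had a median of 0.02 over 76 genes with 40 above 0. Of 124 cytokine, chemokine and interferon pathway genes, 49 (39.5%) lay above 0, against 49.7% of all genes, with 2 at or above 0.5 (3.2% of all genes) and 18 at or below -0.5 (5.18% of all genes). Their median was -0.07, and -0.10 without the end zone. The histocompatibility and complement genes had a median of 0.03 over 30 genes with 19 above 0. Interferon gamma (Ifng) read -2.22, with 0.39, 0.22 and -0.30 at 1, 2 and 6 h, and the interferon regulator gene Irf7 read 0.70.

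Of 121 solute carrier genes, 51 (42.1%) lay above 0, against 49.7% of all genes. The list had 3 genes at or above 0.5 (3.2% of all genes) and 20 at or below -0.5 (5.18% of all genes). Its median was -0.04. Without the end zone 98 had a value, with a median of -0.01, and 8 lay at or below -0.5. The share of all genes without that zone is not given here. Slc6a12, a betaine and GABA transporter gene, read -2.65 and Slc6a6, the taurine transporter gene, -2.60, and neither had a value on any other array. Of the 29 genes with a value at 4 h alone, 3 lay at or below -1, beside 2.16% of all genes. They were Slc6a12, Slc6a6 and, at -2.57, the peptidylarginine deiminase gene Padi3. The highest of the 29 was Gne, the sialic acid synthesis enzyme gene, at 0.78.

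**Figure D4:**
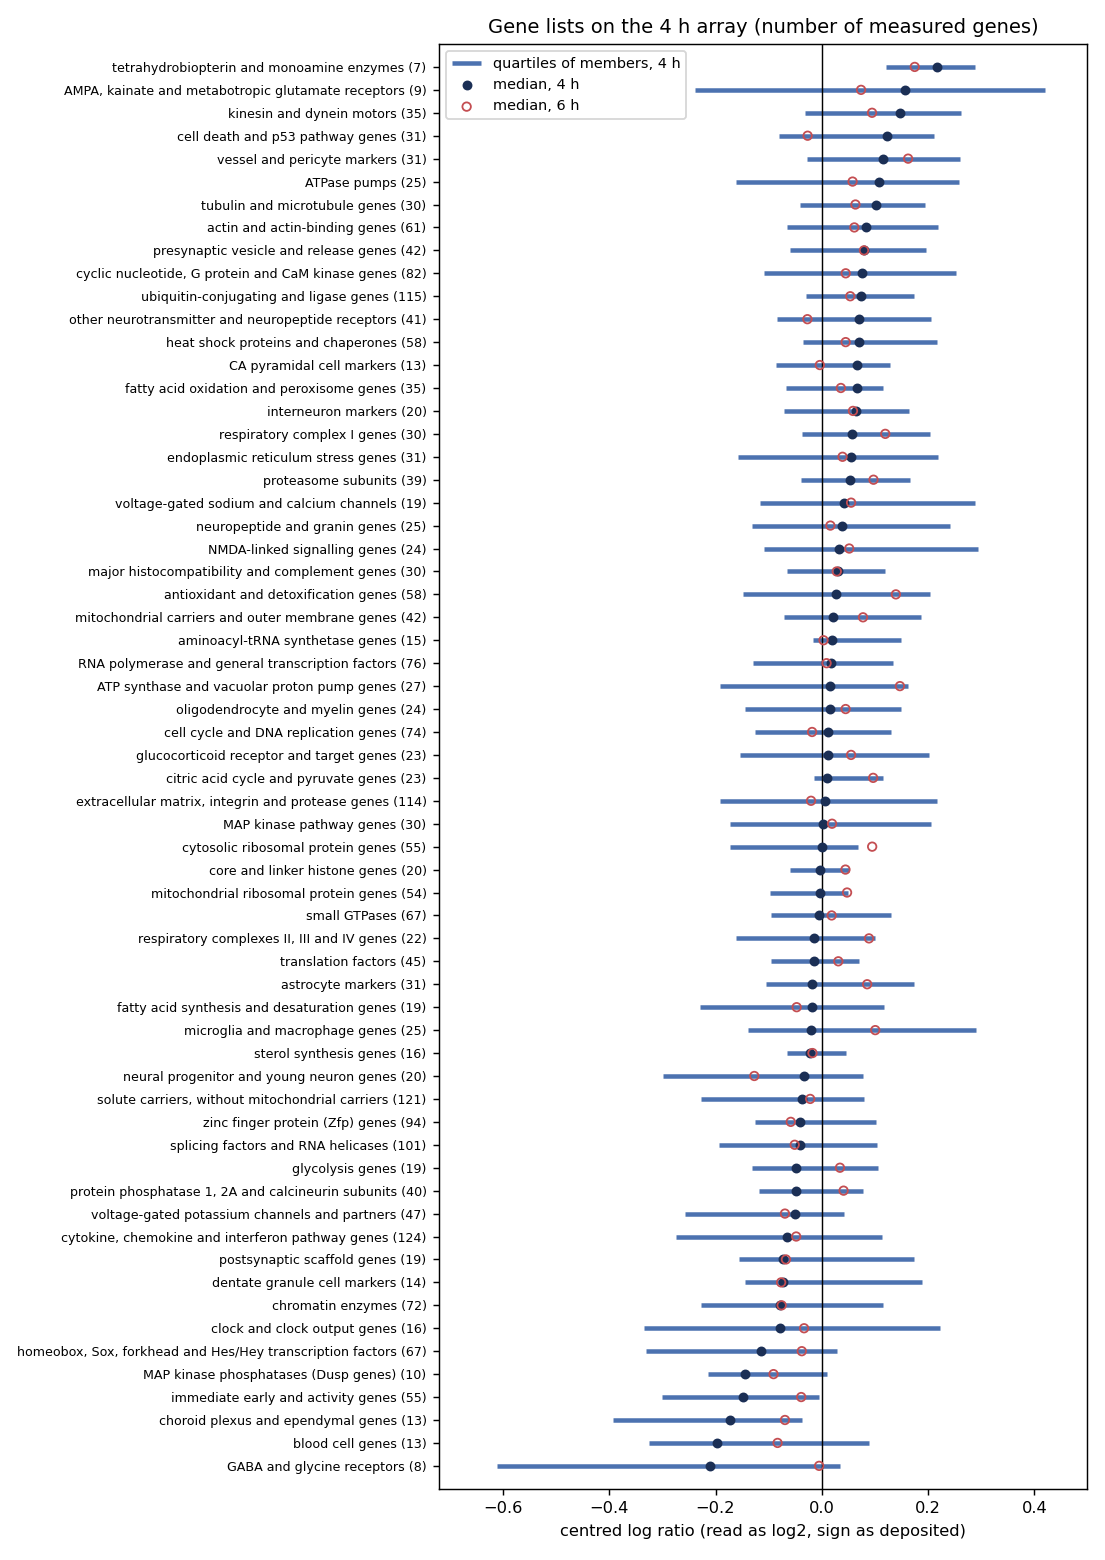
Median (dark points) and quartiles (bars) of the centred log ratio at 4 h for 62 gene lists, with the median at 6 h as open circles and the number of measured genes in brackets. The medians run from -0.21 for GABA and glycine receptors to 0.22 for tetrahydrobiopterin and monoamine enzymes.

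The array compares 2 RNAs and does not give levels. The marker lists show only which markers had a value and on which side they lay. Having a value does not identify the tissue, since 31 of 34 astrocyte markers and 13 of 19 blood cell genes on the platform had one. All 14 dentate granule cell markers had a value, with a median of -0.07 and 6 above 0. Without the end zone the sign of the median turned, to 0.06 over 13 genes with 7 above 0. Prox1 read 0.60, with -0.57, 0.04 and 0.21 at 1, 2 and 6 h, and Neurod2, a neuronal transcription factor gene, -0.45. The markers of the neighbouring CA pyramidal cells had a median of 0.07 over 13 genes with 9 above 0. Astrocyte markers had a median of -0.02 over 31 genes, oligodendrocyte genes 0.01 over 24 (-0.0073 without the end zone) and microglia genes -0.02 over 25.

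Marker lists of other tissue sources had medians somewhat further from 0. Vessel and pericyte markers had a median of 0.12 over 31 genes with 20 (64.5%) above 0, against 49.7% of all genes. The median of this list was -0.15 at 1 h. Choroid plexus and ependymal genes had a median of -0.17 over 13 genes with 3 above 0, and ran from Kl, with features at -3.03 and -0.11, to Ecrg4 at 0.24. Without the end zone the choroid plexus list had a median of -0.13 over 11 genes with 3 above 0. Ttr, the transthyretin gene that marks the choroid plexus, read -0.60 at 4 h, with -0.20, -0.90 and -0.70 at 1, 2 and 6 h. Blood cell genes had a median of -0.20 over 13 genes with 5 above 0, from Car1 at -4.09 to Bpgm at 0.50. Without the end zone 8 of them had a value, with a median of -0.23 and 0 above 0. The median of the list was 0.27, 0.01 and -0.08 at 1, 2 and 6 h. In tissue RNA, fewer cells of a type and less RNA per cell cannot be told apart, and the part of these cells in the readings of other genes was not tested.

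The 4 h array resembled the 6 h array more than the others. Over 9725 features with a value on both, the Pearson r was 0.855, and 0.67 over the 9572 that lay within 1 of the median on both. Against 2 h it was 0.675 over 9680 features and 0.456 within 1, and against 1 h -0.0757 over 9317 features and -0.142 within 1. These are correlations across features, which share the printed sequence, the dye orientation and the array layout, so they describe likeness of the hybridisations and not replication of a gene. The labels name a saline RNA for each time, and the sources used here do not say that one was used again.

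Gene by gene, likeness between 4 h and 6 h was partial. Of the 242 genes at or above 0.5 at 4 h, 189 had a value at 6 h; 54 of them (28.6%) were also at or above 0.5, and 12 (6.35%) lay below 0. Of the 391 at or below -0.5, 364 had a value at 6 h; 180 (49.5%) were also at or below -0.5, and 48 (13.2%) lay above 0. Of all 7275 genes with a value on both arrays, 2.12% lay at or above 0.5 at 6 h, 3.49% at or below -0.5 and 50.6% above 0. Past 0.5 one way at 4 h and the other way at 6 h were 3 genes, named after their values were seen: Ccn2, Lrg1, a secreted glycoprotein gene, at 0.53 and then -0.86, and Cd5, a T cell receptor regulator gene, at -0.97 and then 0.85. Of the 204 features at or below -1, 78 (38.2%) had no value at 6 h, against 4.52% of all features. Of the 126 with a value, 110 were also at or below -1. At 1 h 137 had a value and 7 were at or below -1.

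**Figure D5:**
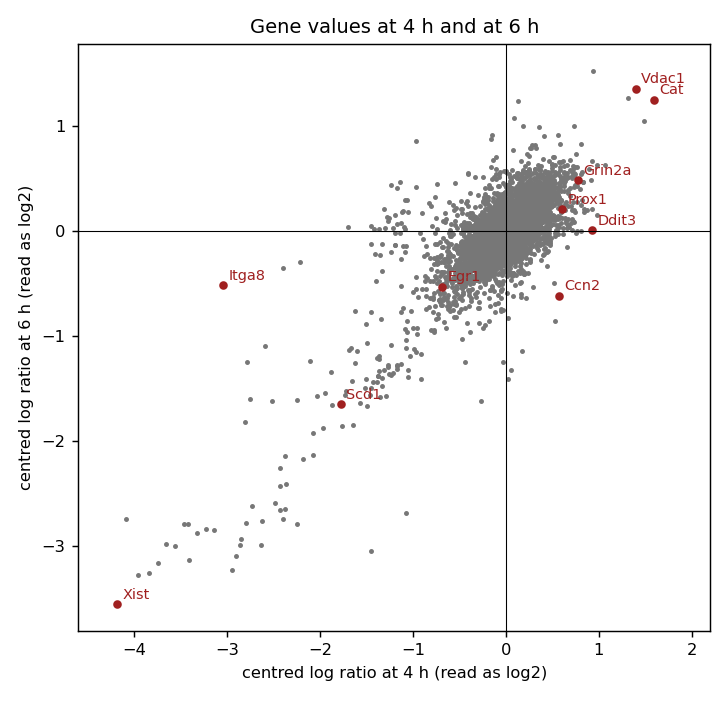
Centred log ratio of each gene at 4 h (horizontal) and at 6 h (vertical), for genes with a value on both arrays, with 10 genes marked in red. Cat and Vdac1 are high on both arrays and Xist and Scd1, a fatty acid desaturase gene, low on both, while Ddit3 (0.93 and 0.01) and Ccn2 (0.57 and -0.62) lay above 0.5 at 4 h and not at 6 h.

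The single test that the design allows sets the 4 h array against the mean of the 1, 2 and 6 h arrays, which were treated as a group although they are different times. It was run with limma over the 6661 genes whose features had values on all 4 arrays. After Benjamini-Hochberg adjustment 0 genes passed 0.05 (0%), and at an unadjusted p under 0.05 there were 44 genes higher and 41 lower at 4 h. Without the 1 h array these became 168 and 165, with the smallest adjusted p at 0.35 in limma. The 5 higher genes with the smallest p were Lrg1 (difference 1.13 ± 0.24 SE), Dlg1 (0.84 ± 0.20), the neutral amino acid transporter gene Slc1a4 (0.82 ± 0.19), the signalling ligand gene Wnt7a (0.77 ± 0.20) and Ap2a1, a subunit of the clathrin adaptor AP2 (0.65 ± 0.17). The 5 lower ones were Tbc1d20, a Rab GTPase-activating protein gene (-0.95 ± 0.19), prolactin (Prl, -0.80 ± 0.18), the phosphatidylcholine synthesis gene Pcyt1a (-0.92 ± 0.21), the interferon gamma receptor gene Ifngr2 (-1.14 ± 0.26) and the T cell co-receptor gene Cd28 (-0.80 ± 0.19). None of these differences can be called at 4 h, and a p that misses the threshold does not show that 4 h equals the other times.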

How the data were processed

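The deposited values are the authors' log ratios of 2-colour arrays, read here as log2; scanning, background correction, normalisation, log base and ratio direction are not given in the sources used here. An exact 0 was read as no value, because zeros made up 37.4% of the 4 h column. Each array's median was subtracted (0.017 at 4 h). Symbols came from the platform annotation: of 16281 features, 13738 had 1 symbol, 52 several and 2491 none. Gene values are means over features. The named genes were the 15 highest and lowest; 10 a side with several features of one sign; 3 a side of each list and any member past 1; 5 a side of the test and of genes with a value at 4 h alone; and a set list of activity, receptor and control genes. Members and lists were chosen with earlier results of these data known, and 2 list patterns that had also matched other gene families were narrowed after values were seen. The test used limma 3.58.1 (lmFit, eBayes) in R 4.3.3, checked on simulated data; tables used Python 3.11.15 and pandas 2.3.3. The number of arrays limits the precision.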

Additional observations from a re-analysis of the deposited data

How the results depend on the processing

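The count of genes at or above 1 was 8, and became 5 with only features valued on all 4 arrays, 18 with the arrays set to equal spread, 76 with the values read as natural logarithms and 0 with only genes of 2 or more features. The count at or below -1 was 163, and became 43 with only features valued on all 4 arrays, 94 without 12 windows of 50 feature numbers that held 5 or more low features, 50 without the end zone of each stretch (from 75% on) and 82 with only genes of 2 or more features. The windows were picked by their low features, so that this count could only fall. The settings on the end zone and on genes with 2 or more features were chosen after seeing the data. The share of activity genes above 0 stayed between 21.2% and 38.9% in the 9 alternatives run on it, the highest being that of the 18 genes with several features. The count of genes passing the test was 0 in each direction in all 10 alternatives, including a range of 0 to 0 when the 1, 2 or 6 h array was left out. Of 601 alternative values of named genes, 47 moved by over 1 pooled SD. The Gapdh mean of -0.04 rested on 3 low features, and its other 17 all lay above 0. All 3 lie in the end zone, so its value is above 0 without that zone. Of 558 alternative list shares, 38 lay outside the exact 95% binomial interval over the genes of the list. That interval counts the genes of 1 array as independent, so it holds no error between arrays or mice. No paired analysis was possible because each time has 1 array.

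The limits are the single array, the unstated sign and log base, and the features at exact 0, which leave 7551 of 9849 genes. Spot signals over background were not used here, so dim and bright features have the same weight.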
